A study of Mus musculus with 12 samples.

Results

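The proteasome genes of C2C12 cells are described here. C2C12 is a mouse myoblast line that fuses into myotubes when serum is withdrawn. Genes were taken by name and gene type, as protein-coding genes whose symbol begins with Psma to Psmg and a digit, from 3 deposited tables of RNA-seq comparisons. Of the 10289 genes with a row in any table, 37 matched. One of them, Psmc3ip, encodes a meiotic recombination protein and no proteasome subunit, and it was kept apart, with a row in the D4 table and a mean normalized count of 133, which left 36. The mouse annotation (GENCODE M21, GRCm38) holds 49 proteasome genes of such names. Of these, 13 had no row in any table (26.5%, against 58.0% of all protein-coding genes).

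The cells were stable lines, made with a lentivirus carrying a CMV promoter and selected with puromycin, that overexpressed GFP as the control, mouse METTL3 or mouse METTL14. METTL3 and METTL14 form the methyltransferase that writes N6-methyladenosine (m6A) into mRNA. RNA-seq covered 4 groups of 2 libraries each: GFP cells in growth medium with fetal bovine serum (GM, day 0), GFP cells after 4 days in differentiation medium with horse serum (D4), and METTL3 and METTL14 cells in GM. The sample titles place the METTL14 libraries at day 0 while their time point field says day 4, and the titles were followed. Each table compares 1 group with GFP cells in GM, so all 3 share those control libraries, and they are called the D4, METTL3 and METTL14 tables here. No label says that the 2 libraries of a group came from separate cultures.

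A table lists a gene where the authors' comparison passed a false discovery rate of 0.05, in either direction. The direction, size and p-value are the authors' own results and are not given here, so a listed gene is one that passed their test, not one that rose or fell. A gene without a row either missed that threshold or was not tested, and its absence does not show that it was unchanged or silent. The level of a gene is its mean normalized count, averaged by the authors over libraries, so it is 1 value for all groups together. It had no replicate spread, no test could be made on it, and the depth of each library is unknown from the tables. The 1746 genes found in several tables carried the same mean in each, to a relative difference of at most 4.77e-10.

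All 9 myoblast and muscle markers examined had a row in some table, among them Myod1, Des and Myog. None of the 4 leukocyte, 3 endothelial and 2 adipocyte markers had one. Mettl3 was listed in the METTL3 table alone, and Mettl14 in the METTL14 and D4 tables.

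The proteasome degrades proteins tagged with ubiquitin. Its barrel-shaped core is built from outer rings of alpha subunits, which gate the entrance, and inner rings of beta subunits, of which Psmb5, Psmb6 and Psmb7 encode those that cut the peptide chain. A cap binds the core at either end, with a base of ATPases (Psmc genes) that unfold the substrate and a lid that removes its ubiquitin. Other genes encode alternative activators, an inhibitor, chaperones that assemble the particle, and the immunoproteasome subunits Psmb8, Psmb9 and Psmb10, which interferon induces in place of the catalytic beta subunits. Atrophying and remodelling muscle relies on this pathway to break down its proteins.

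Most proteasome genes were listed in the D4 table. It held 35 of the 49 proteasome genes (71.4%), against 40.0% of the 22028 protein-coding genes of the annotation. The METTL3 table held 10 of 49 (20.4%), against 7.78% of protein-coding genes. The METTL14 table held 2 of 49 (4.08%), against 4.90%, which is near the background. Among genes listed in any table whose mean normalized count reached 1000, the METTL3 table held 9 of 29 proteasome genes (31.0%) against 21.3% of 2907 protein-coding genes, and the METTL14 table held 1 (3.45%) against 12.6%. The D4 table supplies 96.5% of that base, so its own share there says nothing about the members. No test was made of these shares.

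The D4 table alone held 26 of the 49 genes (53.1%), against 33.0% of protein-coding genes. Another 8 (16.3%, against 3.21%) were in the D4 and METTL3 tables, namely Psma7, Psmb3, Psmb6, Psmc4, Psmc5, Psmd4, Psmd11 and Psme3. Psmb5 was the single proteasome gene in all 3 tables. Psmd8 was the single one in the METTL3 and METTL14 tables without a row in the D4 table. No proteasome gene was in the METTL3 table or the METTL14 table alone, which is near the shares of all protein-coding genes (0.962% and 0.350%). Because the comparisons share their control libraries, this overlap is given as a count.

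**Figure D1:**
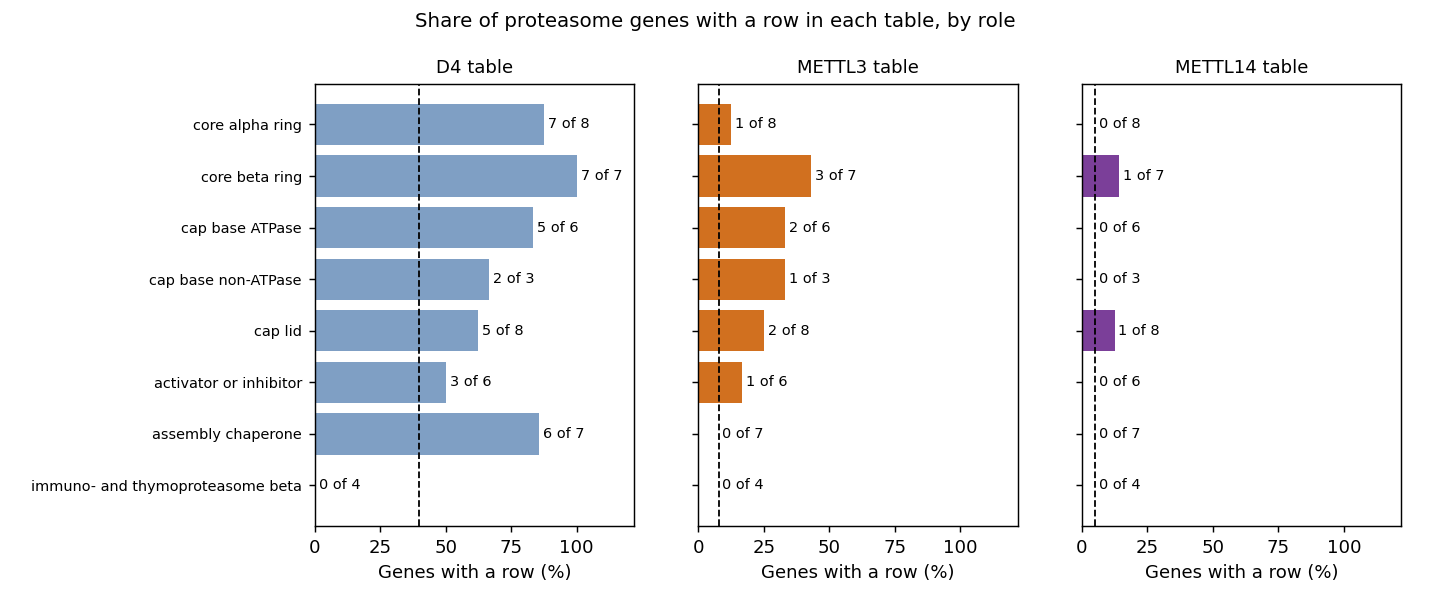
Share of the proteasome genes of each role that have a row in the D4, METTL3 and METTL14 tables, in percent of the genes of that role in the annotation, with the count beside each bar. The dashed lines mark the share of all protein-coding genes (40.0%, 7.78% and 4.90%). The beta ring is complete in the D4 table with 7 of 7 genes. The immunoproteasome and thymoproteasome genes are in no table, as are 58.0% of all protein-coding genes.

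In the core, 14 of the 15 genes were in the D4 table (93.3%), 4 in the METTL3 table (26.7%) and 1 in the METTL14 table (6.67%). All protein-coding genes had shares of 40.0%, 7.78% and 4.90%, so the METTL14 share is near its background. Among protein-coding genes listed in any table, the METTL3 share was higher, at 18.5%. Of the 8 alpha genes, 7 were in the D4 table, and the 1 without a row in any table was Psma8, which encodes a testis-specific alpha subunit. Psma7 was the 1 alpha gene in the METTL3 table. All 7 beta genes were in the D4 table, and Psmb3, Psmb5 and Psmb6 were also in the METTL3 table. Psmb3 encodes a beta subunit without catalytic activity.

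The 3 catalytic genes differed in where they were listed. Psmb5, the chymotrypsin-like subunit that proteasome inhibitor drugs bind, was in all 3 tables. Psmb6, the caspase-like subunit, was in the D4 and METTL3 tables, and Psmb7, the trypsin-like subunit, was in the D4 table alone. Their immunoproteasome counterparts Psmb8, Psmb9 and Psmb10 and the thymus-specific Psmb11 had no row in any table. The same held for 58.0% of all protein-coding genes, so for 4 genes this count says little. The ratio of immunoproteasome to constitutive subunits could therefore not be computed.

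Levels are compared between genes as the mean normalized count per kilobase of exon, since a long transcript yields more reads. On this scale, the alpha genes ran from 467 for Psma2 to 1260 for Psma6, a ratio of 2.70, with a median of 700. The beta genes ran from 428 for Psmb7 to 1274 for Psmb2, a ratio of 2.97, with a median of 585. These subunits occur in equal numbers in each particle, and the values rest partly on which exons the annotation joins. Per kilobase of coding sequence the lowest and highest were Psma5 (1349) and Psma7 (2972) among the alpha genes, and Psmb5 and Psmb1 (3141) among the beta genes.

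The place of Psmb5 in this order depended on the length used. Its mean normalized count of 412 was the lowest of the beta ring, and the next lowest, that of Psmb3, was 3.26 times as high. Per kilobase of exon it stood at 458, above Psmb7, because its annotated exons span only 899 bases. Per kilobase of coding sequence it stood at 520, and the next lowest, Psmb7, at 1763 was 3.39 times as high. Psmb5 also shares 109 of its exon bases (12.1%) with the miRNA gene Mir686 on the same strand, and the annotation names a pseudogene, Psmb5-ps. The annotation likewise names 2 pseudogenes of Psmb6 and 1 of Psmb7, and 405 of the 3421 exon bases of Psmb7 overlap Nek6 on the opposite strand. How the authors' counting treated reads shared by such copies is not stated.

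**Figure D2:**
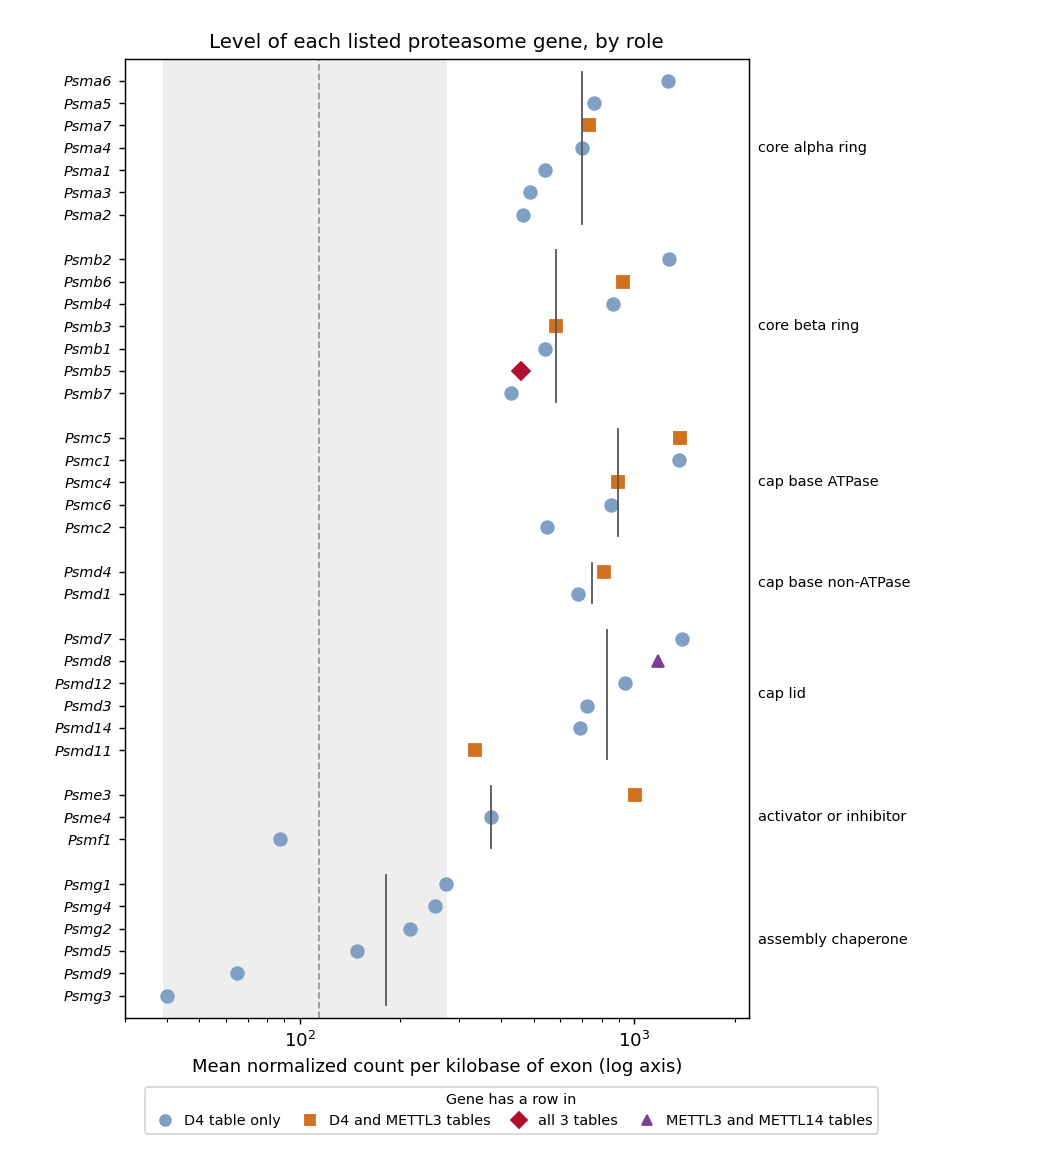
Mean normalized count per kilobase of exon (log axis) of the 36 proteasome genes with a row in any table, 1 point per gene and grouped by role, where the colour and shape give the tables that list the gene, the vertical lines the median of each role, the grey band the quartiles of all listed protein-coding genes (39.2 to 273) and the dashed line their median (115). The points are the authors' means over libraries and carry no error; core and cap genes lie right of the band, and assembly chaperones lie lower, with Psmg3 at 40.2.

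In the cap, 12 of the 17 genes were in the D4 table (70.6%), 5 in the METTL3 table (29.4%) and 1 in the METTL14 table (5.88%). The shares of all protein-coding genes were 40.0%, 7.78% and 4.90%, so the METTL14 share is near its background. With only listed protein-coding genes as the base, the METTL3 share was 18.5%. Of the 6 ATPase genes, 5 were in the D4 table, with Psmc4 and Psmc5 also in the METTL3 table and Psmc3 in none. Their levels per kilobase of exon ran from 548 for Psmc2 to 1371 for Psmc5, with a median of 892, but per kilobase of coding sequence Psmc5 was the lowest of them at 1478. Of the 3 other base genes, Psmd1, a scaffold of the base, was in the D4 table at 681 per kilobase. Psmd4, a receptor for ubiquitin chains, was in the D4 and METTL3 tables at 814 per kilobase, and Psmd2, the other scaffold, was in no table.

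Of the 8 lid genes, 5 were in the D4 table and 2 in the METTL3 table. Psmd14, which encodes the deubiquitinase of the lid, was in the D4 table alone at 689 per kilobase. Psmd7, its non-catalytic partner, had the highest level of any proteasome gene per kilobase of exon, 1391. Per kilobase of coding sequence Psme3 (3554) and Psmd8 (3310) exceeded Psmd7 (3266), and by mean normalized count Psmd1 (4945) was highest. Psmd11, which had the lowest level of the lid at 333 per kilobase, was in the D4 and METTL3 tables. Psmd6 and Psmd13 had no row.

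Psmd8, a lid subunit, was the exception in listing. It was in both writer tables and not in the D4 table, at a mean normalized count of 3595 and a level of 1176 per kilobase, the second highest of the lid per kilobase of exon and the highest per kilobase of coding sequence. Of the 22028 protein-coding genes, 160 (0.726%) shared this pattern. The pattern of Psmb5, listed in all 3 tables, was shared by 634 genes (2.88%).

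Among the activators and the inhibitor, the 3 listed genes differed widely in level. Psme3, which encodes the nuclear activator, stood at 1009 per kilobase and was in the D4 and METTL3 tables. Psme4, a large activator linked to histone degradation, stood at 374 and Psmf1, the inhibitor, at 87.3, both in the D4 table alone. The interferon-induced activator genes Psme1 and Psme2 and their relative Psme2b had no row.

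Of the 7 assembly chaperone genes, 6 were in the D4 table (85.7%, against 40.0% of protein-coding genes), and Psmd10 was in no table. None was in a writer table, which for 7 genes is near the background of 7.78% and 4.90%. Their levels per kilobase of exon ran from 40.2 for Psmg3 to 275 for Psmg1, with a median of 180, and the median of the core genes was 3.56 times as high. The level of Psmd9 (65.0 per kilobase) is uncertain, since 1849 of its 7248 exon bases (25.5%) lie across from exons of the antisense gene Gm26745 and the sources used here do not say whether reads were counted by strand. Psmg3 shares 280 exon bases with Gm26938 on its own strand.

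Of the 36 proteasome genes with a level, 33 lay, per kilobase of exon, above the median of the listed protein-coding genes (115 per kilobase) and 30 above their upper quartile (273). The 6 others were Psmf1 and the chaperones Psmd5, Psmd9, Psmg2, Psmg3 and Psmg4. Core genes had a median of 642 and cap genes of 850 per kilobase.

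Other genes of the pathway are read against the same backgrounds of 40.0%, 7.78% and 4.90%, and for lists this short a count of none in a writer table is near them. Of 11 subunits or factors without a Psm name, 7 were in the D4 table (63.6%) and none in the writer tables, among them the lid subunit gene Sem1, the ubiquitin receptor gene Adrm1, the assembly factor gene Pomp and the deubiquitinase gene Usp14. NRF1, encoded by Nfe2l1, is the transcription factor that raises proteasome genes when the particle is inhibited. A list of 6 genes covered the pathways of NRF1 and of its relative NRF2. Of these, Nfe2l1, Vcp and Keap1 were in the D4 table (3 of 6, near the background), and none was in a writer table. Of 6 ubiquitin and E1 enzyme genes, 5 were in the D4 table and 1, the polyubiquitin gene Ubb, was also in the METTL14 table. Ubqln1, a shuttle receptor that brings tagged proteins to the proteasome, was in the D4 and METTL14 tables, and its relatives Ubqln2 and Ubqln4 were in the D4 table alone.

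Antigen presentation uses peptides made by the immunoproteasome. Of 7 genes examined for it, 3 were in the D4 table (42.9%, near the 40.0% of all protein-coding genes). Each writer table held 1 of them (14.3%), which for so few genes is near 7.78% and 4.90%. B2m, Tapbp and Tap2 were in the D4 table, Tap2 also in the METTL3 table, and Nlrc5 in the METTL14 table alone. Tap1 and Irf1 had no row. Nlrc5, with a mean normalized count of 16.1, and Tap2, with 99.5, were low.

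Other large complexes give a comparison. The COP9 signalosome and the translation initiation factor eIF3 are related in architecture to the lid. All 10 COP9 genes and all 14 eIF3 genes were in the D4 table, which held 40.0% of all protein-coding genes. The METTL3 table, with 7.78% of all protein-coding genes, held none of the COP9 genes and 1 eIF3 gene, Eif3l (7.14%), both near that background. It held 9 of the 32 proteasome core and cap genes (28.1%). That background includes genes without a row in any table. Among genes listed in any table, the METTL3 share was 18.5% of protein-coding genes and 27.8% of the 36 proteasome genes. Of 8 genes examined of the chaperonin CCT, the ring that folds actin and tubulin, 7 were in the D4 table. The gene without a row was Cct6b, and its relative Cct6a was not among those examined. The METTL3 table held 2 of these 8, Cct2 and Cct7, a share close to that of the proteasome core and cap. Of 83 ribosomal protein genes, 79 were in the D4 table and 3, Rpl38, Rps26 and Rps28, in the METTL3 table. None of these 4 complexes had a gene in the METTL14 table, and the core and cap had 2 of 32 (6.25%), Psmb5 and Psmd8, near the 4.90% of all protein-coding genes. The differences between complexes are counts without a test.

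**Figure D3:**
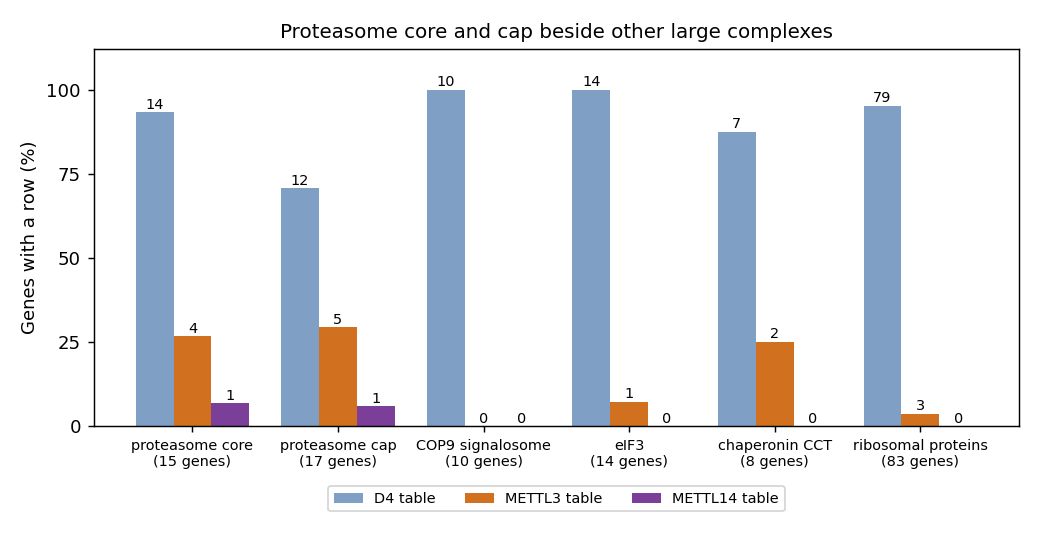
Percent of the genes of each complex that have a row in the D4, METTL3 and METTL14 tables, with the number of listed genes above each bar and the number of genes examined under each name. The D4 bars lie between 70.6% (cap) and 100% (COP9 and eIF3), while the METTL3 bars reach 26.7% in the core and 29.4% in the cap. For the chaperonin CCT, examined without Cct6a, the METTL3 table held 2 of 8 genes, a share just below that of the core.

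The writers methylate adenosines within short consensus letters, of which GGACT in the DNA alphabet is the most favoured. The longest protein-coding transcript of Psmb5, on chromosome 14, held 1 such site and that of Psmd8, on chromosome 7, held 3. They are shown because these genes were the proteasome genes in both writer tables, 10 reference bases on each side (GENCODE M21, GRCm38, minus strand, 5′ to 3′) with the GGACT letters in capitals.
Psmb5 coding sequence, exon 1 of 3, A at 54617906: cagatctgctGGACTtgggtccggg
Psmd8 coding sequence, exon 6 of 6, A at 29175387: gtgggacaagGGACTgtgatgaggg
Psmd8 3′ UTR, exon 6 of 6, A at 29174381: ccagactgagGGACTcttctatcca
Psmd8 3′ UTR, exon 6 of 6, A at 29174337: gttgggccagGGACTagattttttt
These are letters in the reference transcript, and whether the adenosines were methylated was not analysed here.

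Proteasome transcripts were short, with a median longest transcript of 1561 bases for the 36 listed members against 3195 for listed protein-coding genes. GGACT occurred 1.13 times per kilobase at the median against 1.05 times. All 10 members in the METTL3 table held at least 1 GGACT site, which is near the METTL3 table as a whole, where 5.49% of protein-coding genes held none. Of the 26 other listed members 6 (23.1%) held none, against 7.13% of listed protein-coding genes, namely Psma1, Psma4, Psma5, Psmb4, Psmg2 and Psmg4. These are descriptions of reference sequence, without a test.

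The stretch before the start of the proteasome genes was also searched, because the factor NRF1 and its relatives bind sites of the kind TGANNNNGC. RefSeq promoter windows (GRCm38.p6, 250 bases before to 50 after the start) were at hand for 41 of the 49 genes. The letters, on either strand, were in 23 of the 41 (56.1%), against 45.5% of the 17491 genes with a window and 47.9% of listed genes. Before the start alone they were in 16 (39.0%), against 38.9% of all genes and 41.7% of listed genes. In the stricter form TGACNNNGC, which overlaps the first, they were in 6 over the whole window (14.6%) against 14.8%. The other letters were searched on both strands over the whole window. CCAAT was in 34.1% against 42.3% (43.2% of listed genes), and GGGCGG in 56.1% against 49.2% (68.6% of listed genes). CANNTG, the letters bound by MyoD, was in 63.4% against 72.1% (67.5% of listed genes), and TATAAA in 9.76% against 14.8% (9.46% of listed genes). The directions for GGGCGG and TATAAA turned with the base, and none of these shares was tested.

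The 5 members with TGACNNNGC before the start are shown as the gene's own strand reads, with up to 10 bases on each side and the letters or their reverse complement in capitals. Psmb5 and Psmb6 are catalytic and were both in the METTL3 table, while the other 3 were in the D4 table alone.
Psmb5, chr14:54618024-54618052, minus strand: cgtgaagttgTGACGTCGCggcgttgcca
Psmb6, chr11:70525338-70525356, plus strand: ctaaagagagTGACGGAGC
Psmc6, chr14:45329587-45329615, plus strand: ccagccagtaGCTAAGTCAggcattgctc
Psmd9, chr5:123228149-123228177, plus strand: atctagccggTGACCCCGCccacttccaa
Psmd12, chr11:107479278-107479299, plus strand: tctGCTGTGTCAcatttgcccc
The first letter of the match lay at -47 from the RefSeq start in Psmb5, at -9 in Psmb6 and at -31 in Psmd9, at -227 in Psmc6 and at -247 in Psmd12. A match in letters is a description and not a bound site.

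The proteasome genes were scattered over the genome, with a few neighbours. Chromosome 11 carried 9 of the 49 (18.4%), against 7.44% of protein-coding genes. Of the 49, 12 (24.5%) had a start within 1000 bases of that of a protein-coding gene on the opposite strand, against 10.8%. Among these pairs were Psma7 with Ss18l1 at 76 bases, Psmc5 with Ftsj3 at 75 bases, Psmb1 with Tbp at 137 bases and the unlisted Psmb9 with Tap1, whose starts overlap, at -211 bases. Psmb5 lies 3410 bases from its unlisted relative Psmb11 on chromosome 14 (54614119 to 54618022, minus strand). The unlisted Psmb8 and Psmb9 lie 9956 bases apart on chromosome 17, beside the antigen presentation genes, and the unlisted Psme1 and Psme2 lie 5911 bases apart on chromosome 14.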

How the data were processed

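Per the authors' methods, reads were aligned to GRCm38 with hisat2, counted with featureCounts on Ensembl annotation version 102 and compared with DESeq2, and genes at FDR of 0.05 or less were deposited in 3 tables. Program versions are not given in the sources used here. The deposited mean is a normalized signal, in which each read count was divided by the library's size factor and then averaged by the authors over libraries. The deposited fold changes, standard errors, test statistics and p-values are the authors' own comparisons and were not used. The 4 MeRIP-seq libraries were not analysed here, and a few genes of the pathway lists are not reported here.

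Members were all 49 proteasome genes of GENCODE M21 by name, grouped by role, and every member was accounted for. Named with values were the catalytic subunits, the highest and lowest member of each role, members in a writer table, members without a row and genes behind small counts. The members and lists were chosen with earlier results of these data known. The stricter motif was added after the data were examined. Levels were divided by the joined exon length. No test was possible without values per library. Motif search, exon joining and ratios of medians were tested on simulated data. Python 3.11.15, pandas 2.3.3, NumPy 2.4.6, SciPy 1.17.1 and matplotlib 3.10.9 were used.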

Additional observations from a re-analysis of the deposited data

How the results depend on the processing

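The numbers of proteasome genes listed (35, 10 and 2) were the same with a minimum mean normalized count of 100 and with any gene type, and counting Psmc3ip gave 36 in the D4 table. Over the median of all listed protein-coding genes, core genes stood at 5.61 times per kilobase of exon, 6.25 per kilobase of coding sequence, 8.29 per kilobase of the longest transcript and 2.99 without division by length. Cap genes stood at 7.42, 5.61, 8.76 and 4.82 times in that order, activators and the inhibitor at 3.27, 2.00, 2.91 and 5.46 times, and assembly chaperones at 1.58, 1.29, 1.5 and 0.678 times. The chaperones therefore fell below the median without division by length, and core genes exceeded cap genes per kilobase of coding sequence; the cause lies in the lengths, as the counts are the same. The longest transcript was added as a length after the data were examined. TGANNNNGC fell from 56.1% to 39.0% of member promoters before the start alone, where 38.9% of all genes and 41.7% of listed genes held it. The stricter form was in 14.6%. Before the start alone, GGGCGG moved from 56.1% to 53.7% and CANNTG from 63.4% to 56.1%, while CCAAT and TATAAA stayed at 34.1% and 9.76%. With genes listed in any table as the base, 95.1%, 18.5% and 11.7% of protein-coding genes were in the D4, METTL3 and METTL14 tables. With a minimum count of 100 the shares were 95.8%, 19.5% and 12.1%. The 36 listed proteasome genes stood at 97.2%, 27.8% and 5.56% on either base. Their METTL14 share, near the background over the whole annotation, was thus below it on these bases. The D4 table supplies most of these bases, so its share there is fixed by construction. The ratio of immunoproteasome to constitutive subunits was not run. Leaving out single libraries could not be run without values per library. No paired analysis was possible because the tables hold no values per library.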
